A study of Mus musculus with 6 samples.

Results

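The genes described here encode synaptic adhesion proteins, namely the neurexins Nrxn2 and Nrxn3, the neuroligins Nlgn1, Nlgn2 and Nlgn3, and the leucine-rich repeat transmembrane proteins Lrrtm1, Lrrtm2, Lrrtm3 and Lrrtm4. They were chosen by name, as 9 of the 21958 protein-coding genes in the deposited count table, and all 9 were among the 12255 genes that passed the filter on low counts and were tested. RNA was sequenced from synaptoneurosomes, a filtered brain fraction enriched in pinched-off synapses with their presynaptic and postsynaptic sides, prepared from the hippocampus and adjacent cortex of FVB mice aged 6-8 weeks. One group of 3 libraries held total RNA from unstimulated synaptoneurosomes, which were kept on ice with cycloheximide. The other group of 3 libraries held RNA from pooled polyribosomal fractions of synaptoneurosomes that received a 30 s pulse of 50 µM NMDA and 10 µM glutamate, followed by 120 µM APV, a blocker of the NMDA receptor (NMDA-R), and 20 min of incubation. The groups differed in both stimulation and fraction, so effects of the pulse and of polyribosome association cannot be told apart. The mice were wild type, each preparation pooled several male animals and was divided into aliquots, and libraries with the same replicate number came from the same preparation.

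Neurexins are presynaptic receptors that reach across the synaptic cleft. Neuroligins and Lrrtm proteins sit in the postsynaptic membrane and bind neurexins, and their intracellular ends attach to postsynaptic scaffolds. Nlgn1 is found mainly at excitatory synapses, Nlgn2 mainly at inhibitory synapses and Nlgn3 at both, whereas Lrrtm proteins act at excitatory synapses. In a neuron, the mRNA of a presynaptic protein may also be present in dendrites, so the names presynaptic and postsynaptic refer here to where the protein acts.

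The start codon is where a ribosome begins the coding sequence, and the bases around it are shown because the comparison is of polyribosome-bound RNA with total RNA. The sequences come from a single Gencode vM21 transcript per gene on GRCm38, the principal one with the longest coding sequence. Other transcripts of a gene may differ. They run from 5′ to 3′ along the spliced transcript. In capitals are the base 3 positions before the start codon, the ATG itself and the base that follows it.
Nrxn2: gccgccggaGgcATGGcgctcggg
Nrxn3: ccagcaggcAccATGAgctttacc
Nlgn1: taatgtgggAccATGGcacttccc
Nlgn2: cccccaatcAgcATGTggctcctg
Nlgn3: cctgcccggAacATGTggctgcag
Lrrtm1: agattctcgCtaATGGatttcctg
Lrrtm3: acaatacaaAggATGGgtttcaat
Lrrtm4: gcacaataaGgaATGCcaggtttc
A purine at the position 3 bases before the start codon was present in 8 of the 9 genes, Lrrtm1 being the exception, against 86.8% of the 11907 tested genes with such a context. A G directly after the start codon was present in 5 of 9, against 52.7%, and both features together in 4 of 9, against 45.7%. The start codons lie at chr19:6428049-6428051 on the plus strand for Nrxn2 and at chr11:69834436-69834438 on the minus strand for Nlgn2, and both Nrxn2 and Nlgn1 have purine and G together while Nlgn2 has the purine alone.

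The counts on protein-coding genes summed to 5294482-7361580 in the polyribosome libraries and to 1044955-3738022 in the total RNA libraries, total RNA replicate 3 being the shallowest. The 9 genes together took 0.217-0.248% of the counts of a polyribosome library and 0.201-0.218% of those of a total RNA library. Their mean abundance placed them between the 71.2 and 98.8 percentiles of the genes tested, and the smallest count of any of them in any library was 59, for Lrrtm3 in total RNA replicate 3. All 10 synaptic neuron markers were detected, and their summed abundance was 12240-15325 CPM (counts scaled to a common library size) on polyribosomes and 11312-12613 CPM in total RNA. With no library of unfractionated tissue, their detection cannot show enrichment of synapses. Glial markers were also present. The summed abundance of 11 astrocyte markers was 45235-49688 CPM on polyribosomes and 34729-40602 CPM in total RNA, with all 11 log2 fold changes above 0 (median 0.54). For the 10 oligodendrocyte markers the sums were 11320-15435 and 8172-11588 CPM, for the 10 microglia markers 1030-1201 and 664-939 CPM, and for the 8 endothelial markers 311-542 and 332-339 CPM, with no marker of any list at 0 in the table. The median log2 fold change was 0.14 for the synaptic neuron markers, 0.30 for oligodendrocytes, 0.36 for microglia and 0.23 for endothelial cells. The part of these cell types in the values below was not tested, and in such bulk samples fewer cells of a type and less RNA per cell cannot be told apart.

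Levels were compared between genes as CPM per kb of annotated exon, which counts each exonic base once. In total RNA, Nlgn2 (64.6 ± 6.12, SD, n = 3) and Nrxn2 (64.5 ± 7.20) stood highest, and Nrxn3 followed with 44.7 ± 2.10 CPM per kb. Lrrtm1 had 33.9 ± 1.14, and the remaining genes lay lower, with 16.8 ± 5.13 for Lrrtm2, 16.7 ± 0.502 for Nlgn3, 15.4 ± 1.71 for Nlgn1, 14.3 ± 1.07 for Lrrtm3 and 11.5 ± 1.01 for Lrrtm4. The ranges of Nlgn2 and Nrxn2 overlapped, those of Nrxn2, Nrxn3 and Lrrtm1 did not, and those of Lrrtm2, Nlgn3, Nlgn1 and Lrrtm3 each overlapped the range of their neighbour in this order. Lrrtm1 was thus the most abundant Lrrtm mRNA and Nlgn2 the most abundant neuroligin mRNA in every total RNA library. On polyribosomes, Nrxn2 had 100.2 ± 10.6 CPM per kb (range 88.3-108) and Nlgn2 85.7 ± 3.54 (range 83.2-89.8), so that these ranges overlapped. Nrxn3 (45.5 ± 6.46) and Lrrtm1 (43.0 ± 4.29) overlapped there as well, and the other genes lay at 8.34-13.3 CPM per kb on average. A level per kb depends on the length taken: over the longest transcript alone, Nrxn2 had 89.3 CPM per kb in total RNA and 139 on polyribosomes, above Nlgn2 with 66.5 and 88.4.

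The main comparison asked which mRNAs were more or less abundant on polyribosomes of stimulated synaptoneurosomes than in total RNA of unstimulated ones. A log2 fold change above 0 means a higher abundance on polyribosomes, and the threshold was an adjusted p under 0.01. In edgeR's quasi-likelihood test, fitted with no term but the group, 0 of the 9 genes passed in either direction, against 0.71% of all genes tested called higher and 2.36% called lower. At an unadjusted p under 0.05 the test gave 2 of 9 higher (Nrxn2 and Nlgn2), against 15.4% of all genes, and 3 of 9 lower (Nlgn1, Lrrtm2 and Lrrtm4), against 17.1%. With the replicate number as a block, which compares the libraries of 1 preparation with each other, the same 5 genes passed the threshold: Nrxn2 and Nlgn2 rose, against 11.8% of all genes, and Nlgn1, Lrrtm2 and Lrrtm4 fell, against 13.2%. The calls depended on the replicates fitted, and without replicate 2 the blocked fit gave 0 of 9 in either direction, against 4.19% of all genes higher and 5.52% lower. Without replicate 1 it called Nrxn2 higher, against 5.15% of genes, and Lrrtm2 lower, against 7.47%. Without replicate 3 it called 2 higher, against 11.7%, and 3 lower, against 12.8%. DESeq2, fitted without the block, called Nrxn2 higher (1 of 9, against 3.19% of genes) and 0 of 9 lower (against 3.77%). Here and below, DESeq2 shares are of the 9919 genes that it gave an adjusted p. The values in each library, plotted as abundance by library, are given gene by gene.

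**Figure D1:**
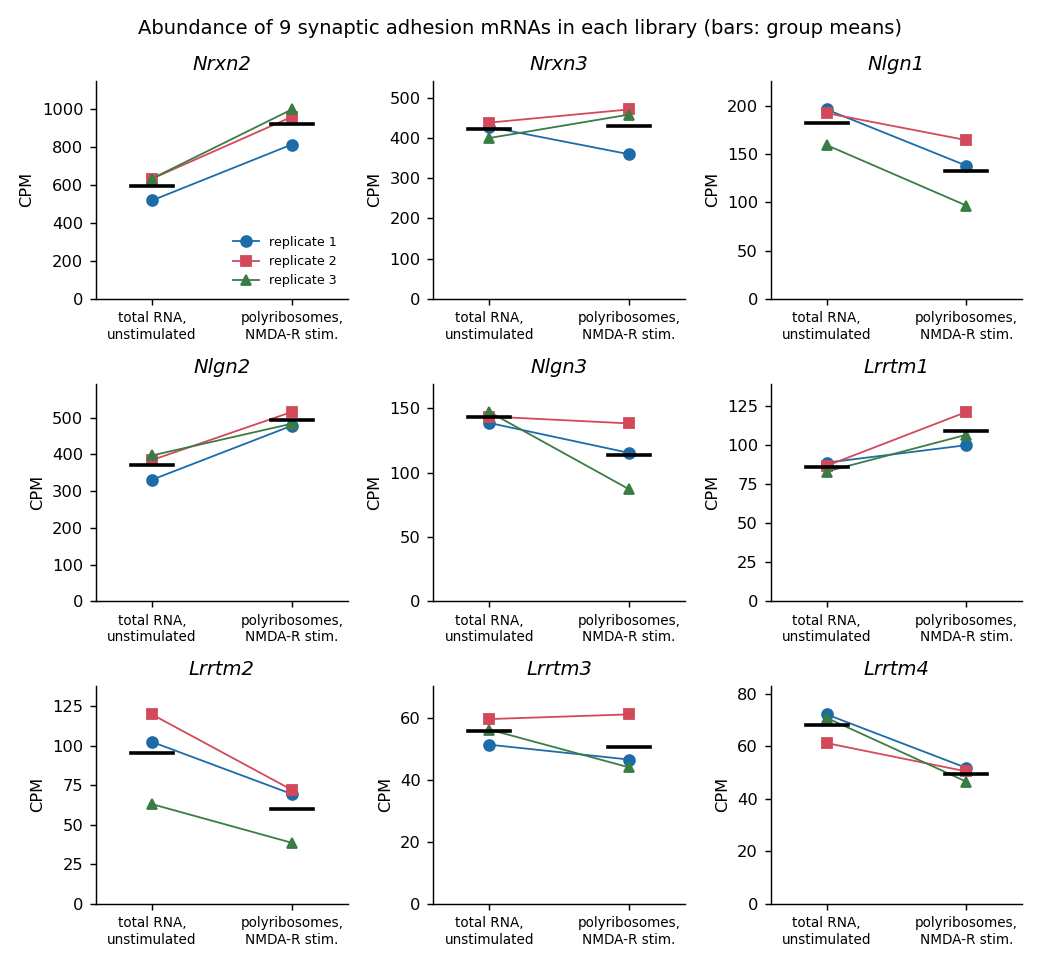
Each panel plots the CPM of 1 gene (vertical axis, from 0) in total RNA of unstimulated synaptoneurosomes and on polyribosomes after NMDA-R stimulation, with lines joining the libraries of 1 replicate number and black bars at the group means. Nrxn2, Nlgn2 and Lrrtm1 were higher on polyribosomes in all 3 replicates, Nlgn1, Nlgn3, Lrrtm2 and Lrrtm4 were lower in all 3, and the lines of Nrxn3 and Lrrtm3 went both ways.

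Nrxn2 and Nrxn3 encode presynaptic receptors that are made as long alpha and short beta forms, which a count per gene does not separate. Nrxn2 (chr19:6418731-6544169, plus strand) had 814, 960 and 999 CPM on polyribosomes and 519, 633 and 634 CPM in total RNA of replicates 1 to 3. All polyribosome libraries stood above all total RNA libraries, and the lines of the 3 replicates ran nearly in parallel. The means were 924 ± 97.5 and 595 ± 66.4 CPM (SD, n = 3 each), a log2 fold change of 0.64 ± 0.18 (SE) with an adjusted p of 0.0281 in edgeR's quasi-likelihood test, and the log2 ratio within replicates was 0.65, 0.60 and 0.66. With the block the adjusted p of edgeR was 1.96e-05, and with DESeq2 it was 0.00259. Nrxn2 shares 682 of its 9221 exonic bases with the antisense gene Slc22a12, which had 2-16 counts per library against 663-6384 for Nrxn2.

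Nrxn3 (chr12:88722876-90334935, plus strand) had 359, 471 and 458 CPM on polyribosomes and 427, 438 and 400 CPM in total RNA. The groups overlapped, with the polyribosome library below the total RNA library in replicate 1 and above it in replicates 2 and 3. The log2 fold change was 0.02 ± 0.17 (edgeR's quasi-likelihood test, adjusted p = 0.941), and its sign turned when counts were scaled by library totals alone (-0.08). Within each library the count of Nrxn2 was 2.27, 2.04 and 2.18 times that of Nrxn3 on polyribosomes and 1.21, 1.45 and 1.59 times in total RNA. The ratio was higher on polyribosomes in every replicate, by 0.62 ± 0.24 on the log2 scale (SD over 3 replicates), without overlap between the groups. It was not tested and holds no correction for GC content. With the block and an offset for GC content and length, described later, the log2 fold changes of Nrxn2 and Nrxn3 were 0.33 and 0.26.

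Among the neuroligins, Nlgn2 had a log2 fold change above 0 and Nlgn1 and Nlgn3 had values below 0, but with the block and an offset for GC content and length, described later, Nlgn2 (0.14) and Nlgn1 (0.12) were nearly equal and Nlgn3 had -0.14. Nlgn2 (chr11:69823122-69837784, minus strand), the neuroligin of inhibitory synapses, had 478, 515 and 483 CPM on polyribosomes and 331, 384 and 397 CPM in total RNA. The groups did not overlap, although the gap narrowed to a log2 ratio of 0.28 in replicate 3 against 0.53 and 0.42 in replicates 1 and 2. This gave a log2 fold change of 0.41 ± 0.16 (edgeR's quasi-likelihood test, adjusted p = 0.0974 and with the block 0.00493). No other annotated gene overlaps Nlgn2.

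Nlgn1 (chr3:25426215-26332460, minus strand), the neuroligin of excitatory synapses, had 138, 165 and 96.7 CPM on polyribosomes and 197, 193 and 160 CPM in total RNA. Each polyribosome library lay below its total RNA partner, but polyribosome replicate 2 lay above total RNA replicate 3, so the groups overlapped. The log2 fold change was -0.46 ± 0.20 (edgeR's quasi-likelihood test, adjusted p = 0.119 and with the block 0.00161). An antisense transcript, A830092H15Rik, covers 10.4% of the exonic bases of Nlgn1.

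Nlgn3 (chrX:101299168-101325963, plus strand), which works at both kinds of synapse, had 115, 138 and 87.1 CPM on polyribosomes and 139, 144 and 147 CPM in total RNA. The polyribosome libraries lay below the total RNA libraries without overlap, but replicate 2 differed by a log2 ratio of only -0.06 and replicate 3 by -0.76. The log2 fold change of -0.33 ± 0.18 did not pass (edgeR's quasi-likelihood test, adjusted p = 0.226 and with the block 0.0318). The value is uncertain because the annotated transcript Gm21986 on the same strand shares 44.6% of the exonic bases of Nlgn3.

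The balance between neuroligins was read directly from the counts within each library, where no scaling enters. Nlgn2 had 3.46, 3.13 and 4.996 times the count of Nlgn1 on polyribosomes and 1.68, 1.99 and 2.49 times in total RNA. Every polyribosome value exceeded every total RNA value, with a mean difference of 0.90 ± 0.22 on the log2 scale over the 3 replicates. Against Nlgn3, the count of Nlgn2 differed between the groups by 0.77 ± 0.28 on the log2 scale, again without overlap. The ratio of Nlgn3 to Nlgn1 overlapped between the groups, with a mean difference of 0.13 ± 0.14. These differences between genes are described over 3 replicates and were not tested, and the count ratios hold no correction for GC content, under which the log2 fold changes of Nlgn2 and Nlgn1 were 0.14 and 0.12.

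Lrrtm1 had a log2 fold change above 0 and the other Lrrtm genes had values below 0, that of Lrrtm3 smaller than its standard error. With the block and the GC and length offset, Lrrtm1 (0.09) and Lrrtm3 (0.14) were both above 0. Lrrtm1 (chr6:77242689-77257791, plus strand) had 100.1, 121 and 107 CPM on polyribosomes and 88.9, 86.9 and 83.2 CPM in total RNA. The groups did not overlap, and the total RNA libraries lay close together. Its log2 fold change of 0.34 ± 0.16 did not pass (edgeR's quasi-likelihood test, adjusted p = 0.155 and with the block 0.0295).

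Lrrtm2, a neurexin ligand of excitatory synapses encoded on chromosome 18, had 69.5, 72.1 and 38.6 CPM on polyribosomes and 103, 120 and 63.1 CPM in total RNA. Replicate 3 was the lowest in both groups, so that the groups overlapped while the log2 ratios within replicates were alike, at -0.56, -0.73 and -0.71. Its log2 fold change was -0.69 ± 0.25 (edgeR's quasi-likelihood test, adjusted p = 0.0692 and with the block 1.34e-05), the lowest of the 9 genes. Counts within each library gave a ratio of Lrrtm1 to Lrrtm2 of 1.44, 1.68 and 2.77 on polyribosomes and 0.867, 0.724 and 1.32 in total RNA. The ratio was higher on polyribosomes in every replicate and did not overlap between groups, with a mean difference of 1.01 ± 0.25 on the log2 scale. It was not tested and holds no correction for GC content. With the block and the GC and length offset, the log2 fold changes of Lrrtm1 and Lrrtm2 were 0.09 and -0.17.

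Lrrtm4 (chr6:80018877-80810143, plus strand), which binds heparan sulfate proteoglycans as well as neurexins, had 51.7, 50.4 and 46.4 CPM on polyribosomes and 72.1, 61.1 and 70.8 CPM in total RNA. All polyribosome libraries lay below all total RNA libraries. The log2 fold change was -0.45 ± 0.16 (edgeR's quasi-likelihood test, adjusted p = 0.0690 and with the block 0.00472), and an antisense transcript, Gm4409, covers 26.0% of the exonic bases of the gene. Lrrtm3 (chr10:63928472-64090277, minus strand) had 46.7, 61.3 and 44.2 CPM on polyribosomes and 51.5, 59.8 and 56.4 CPM in total RNA. The groups of Lrrtm3 overlapped and the replicates went both ways, with a log2 fold change of -0.14 ± 0.18 (edgeR's quasi-likelihood test, adjusted p = 0.642).

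Across the 9 genes the median log2 fold change was -0.14, and across the 7 postsynaptic ones -0.33, against 0.00 over all genes tested. CPM values did not overlap between the groups for 3 of 9 genes higher on polyribosomes (Nrxn2, Nlgn2 and Lrrtm1), against 17.4% of all genes, and for 2 of 9 lower (Nlgn3 and Lrrtm4), against 18.8%. All 3 replicates had the same sign in 3 of 9 genes upward, against 30.1%, and in 4 of 9 downward, against 30.6%.

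**Figure D2:**
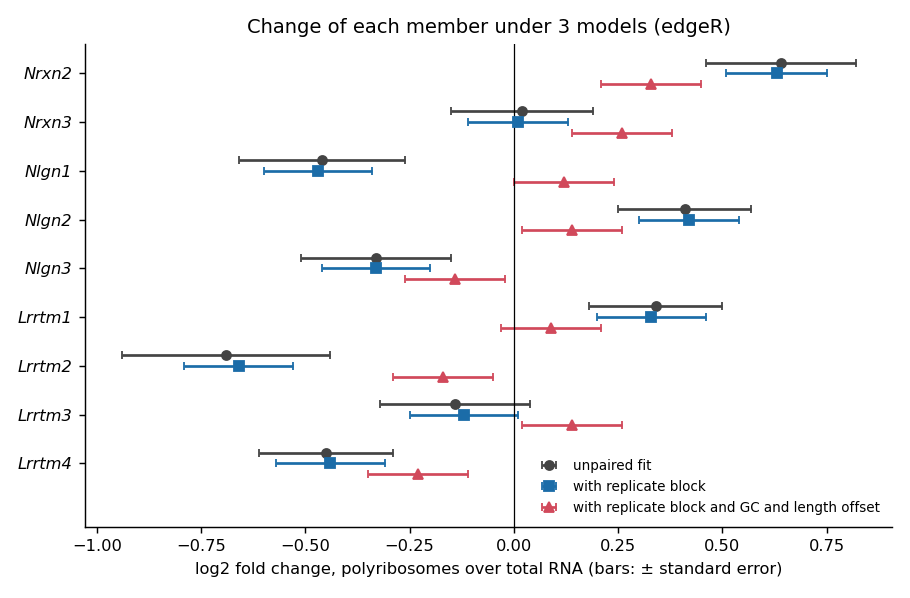
The horizontal axis is the log2 fold change of each gene, polyribosomes over total RNA, with standard errors as bars, in the unpaired edgeR fit (circles), with the replicate block (squares) and with the block plus the GC and length offset (triangles). Values of the unpaired and blocked fits nearly coincide with smaller errors under the block, and with the offset Nlgn1 and Lrrtm3 lie above 0 and Lrrtm2 moves from -0.66 to -0.17.

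Presynaptic and postsynaptic partners were compared by the sum of raw counts within each library. The 7 postsynaptic genes had 7406, 7476 and 4397 counts on polyribosomes and 3961, 3138 and 1022 in total RNA. The neurexins Nrxn2 and Nrxn3 had 8694, 9516 and 7093 counts on polyribosomes and 3819, 3206 and 1081 in total RNA. The postsynaptic sum was thus 0.852, 0.786 and 0.620 times the neurexin sum on polyribosomes and 1.04, 0.979 and 0.945 times in total RNA. All polyribosome ratios were lower than all total RNA ratios, and the mean difference was -0.40 ± 0.18 on the log2 scale (SD over 3 replicates), with replicate 3 the farthest from 0 at -0.61. The difference was -0.33 ± 0.21 for the neuroligins and -0.59 ± 0.10 for the Lrrtm genes against the same neurexin sum.

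The difference depended on which neurexin was counted. Against Nrxn2 alone the postsynaptic sum was 1.23, 1.17 and 0.904 on polyribosomes and 1.89, 1.66 and 1.54 in total RNA, a difference of -0.63 ± 0.14 without overlap. Against Nrxn3 alone it was 2.78, 2.39 and 1.97 on polyribosomes and 2.30, 2.39 and 2.44 in total RNA, and the groups overlapped with a mean difference of -0.01 ± 0.29. Nlgn2 supplies the largest part of the neuroligin counts and was itself higher on polyribosomes, and a mean over genes weighs it less. The mean of the log2 ratios of the 7 postsynaptic genes minus that of Nrxn2 and Nrxn3 was -0.38, -0.40 and -0.78 in replicates 1 to 3. No test was made of any of these sums, and they hold no correction for GC content.

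**Figure D3:**
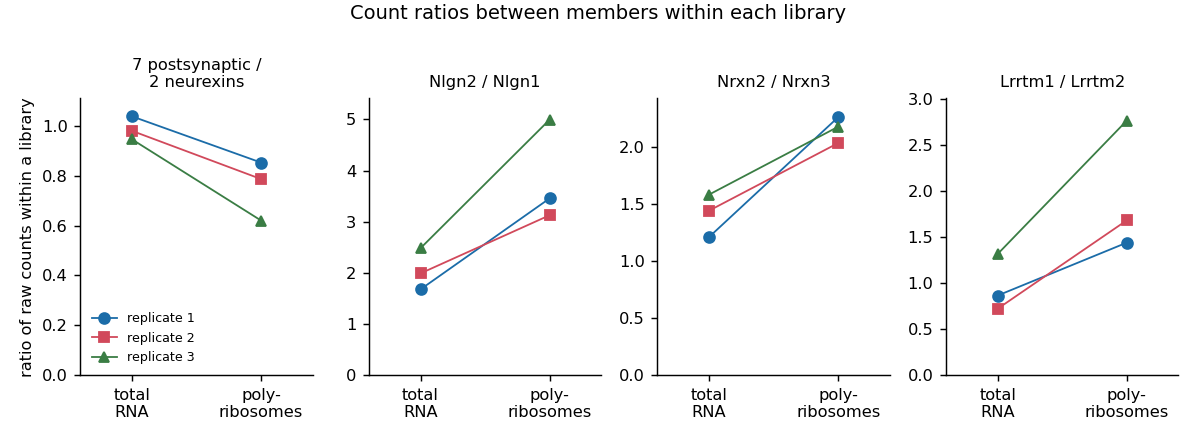
The vertical axes, which start at 0, show ratios of raw counts within a library for the 7 postsynaptic genes over Nrxn2 and Nrxn3, Nlgn2 over Nlgn1, Nrxn2 over Nrxn3, and Lrrtm1 over Lrrtm2, in total RNA and on polyribosomes, with lines joining libraries of 1 replicate number. The first ratio was lower and the other ratios were higher on polyribosomes in all 3 replicates, and in no panel did the groups overlap. The neuroligin and Lrrtm pairs set the gene with the highest log2 fold change of the family against the lowest, which favours separation. Ratios not plotted include Nlgn3 over Nlgn1 and the postsynaptic genes over Nrxn3 alone, which overlapped between the groups.

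The order of the genes by log2 fold change followed the GC content of their transcripts. GC content was 62.4% for Nrxn2, 60.7% for Nlgn2 and 56.1% for Lrrtm1, the genes with the highest log2 fold changes. It was 49.3% for Nlgn3, 47.5% for Nrxn3, 44.7% for Lrrtm4 and 44.5% for Lrrtm3, and lowest for Nlgn1 (38.9%) and Lrrtm2 (38.4%). Across the 9 genes Pearson's r between GC content and log2 fold change was 0.94 and Spearman's rho 0.92, and across the 12193 tested genes with a matching transcript r was 0.53. These are descriptions over genes, which share the same 6 libraries and are not independent replicates. In the class of genes with 35-40% GC, which holds Nlgn1 and Lrrtm2, the median log2 fold change of 490 genes was -0.49, with quartiles of -0.83 and -0.19. In the class of 60-65%, which holds Nrxn2 and Nlgn2, the median of 599 genes was 0.45, with quartiles of 0.22 and 0.67. All 9 of the adhesion genes lay within the middle 50% of the genes in their own GC class.

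With the block and an offset that removes the average trend with GC content and length, edgeR's quasi-likelihood test called 0 of 9 genes in either direction, against 7.83% of all genes higher and 7.36% lower. Nrxn2 kept the highest log2 fold change of the 9, at 0.33 (adjusted p = 0.0412), followed by Nrxn3 at 0.26 (adjusted p = 0.107). Nlgn2 had 0.14 (adjusted p = 0.427), Lrrtm1 0.09 (adjusted p = 0.631), Nlgn1 0.12 (adjusted p = 0.484) and Lrrtm3 0.14 (adjusted p = 0.454). The values of Lrrtm4 (-0.23, adjusted p = 0.156), Lrrtm2 (-0.17, adjusted p = 0.310) and Nlgn3 (-0.14, adjusted p = 0.426) remained below 0. The part of GC content in these differences was not tested further.

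**Figure D4:**
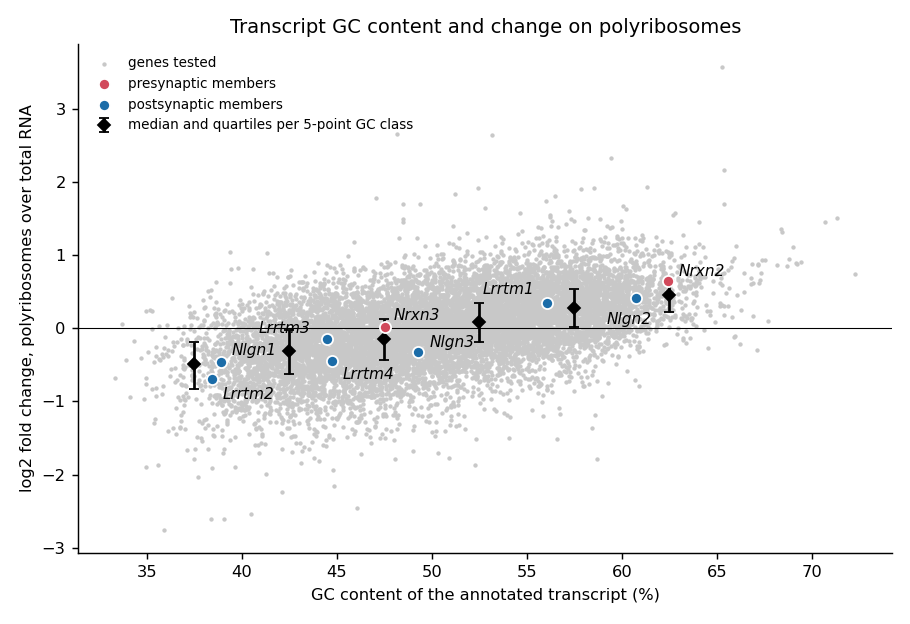
The horizontal axis is the GC content of the annotated transcript in percent and the vertical axis the log2 fold change of the unpaired edgeR fit, for all genes tested (grey), the neurexins (red) and the postsynaptic genes (blue), with black diamonds and bars for the median and quartiles of each 5-point GC class. The 9 genes run from Lrrtm2 (38.4%, -0.69) to Nrxn2 (62.4%, 0.64) along the medians of all genes.

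Of the other features of the transcripts, the GC content of the 5′ untranslated region was the most closely ordered with the change, with Pearson's r of 0.86 and Spearman's rho of 0.83 over the 9 genes, against 0.04 and 0.03 over all genes tested. The 5′ untranslated region was longest in Nlgn1, at 1852 bases with 27 upstream ATG triplets, against medians of 192 bases and 1 triplet in all genes tested, and shortest in Nlgn3, at 286 bases with 3. Nrxn2 had 486 bases with 4 upstream ATG triplets and Nlgn2 976 bases with 3. Over the 9 genes Pearson's r with the log2 fold change was -0.05 for the length of the 5′ untranslated region, -0.37 for the number of upstream ATG triplets, -0.57 for the length of the 3′ untranslated region and 0.53 for the coding length. Over all genes tested the same coefficients were -0.02, -0.06, -0.20 and -0.17, so that the sign for the coding length differed. Transcript length gave -0.22 over the 9 genes and -0.26 over all genes tested.

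The partners of these proteins were described from lists. Of 17 genes for extracellular partners of neurexins and neuroligins, 14 had a log2 fold change above 0 and 3 below, with a median of 0.34. None passed in edgeR's unpaired quasi-likelihood test (7 higher and 0 lower at an unadjusted p under 0.05, and 2 higher and 0 lower with DESeq2), whereas 6 rose and 0 fell with the replicate block, and 4 were called higher with the block and the GC and length offset. The shares over all genes called higher were 15.4% at the unadjusted threshold, 3.19% with DESeq2 (of its 9919 genes), 11.8% with the block and 7.83% with the block and offset. The shares called lower were 17.1%, 3.77%, 13.2% and 7.36% in the same order. The largest values were those of C1ql2, which encodes a secreted C1q-like synaptic ligand (log2 fold change 1.11 ± 0.25, adjusted p = 0.0129 in the unpaired test of edgeR), and Nxph4, a neurexophilin (1.02 ± 0.44, adjusted p = 0.122). C1ql2 was called with the block (edgeR, adjusted p = 4.22e-06) but not with the block and offset, where it had 0.52 (adjusted p = 0.0393) and Nxph4 had 0.35 (adjusted p = 0.554). Clstn3, a calsyntenin, and Sparcl1, a protein secreted mainly by astrocytes that bridges neurexins and neuroligins, both had 0.66, and both were called with the block and with the block and offset, at 0.46 and 0.72 in the latter. Of the partners, Mdga2, a membrane protein that binds neuroligins, had the lowest value (-0.24 ± 0.17, adjusted p = 0.345), and Nxph1 followed (-0.11 ± 0.22, adjusted p = 0.760). The astrocyte markers given above were also higher on polyribosomes, and their part in the value of Sparcl1 was not tested.

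Intracellular partners and scaffolds lay mostly on the other side of 0 in the unpaired fit, with 12 of 15 log2 fold changes below 0 and a median of -0.23. None passed in edgeR's unpaired quasi-likelihood test (1 higher and 2 lower at an unadjusted p under 0.05, and 0 with DESeq2), and with the block 1 rose, against 11.8% of all genes, and 2 fell, against 13.2%. Over all genes, 15.4% were higher and 17.1% lower at the unadjusted threshold, and 3.19% and 3.77% with DESeq2. Lin7a, a small PDZ protein of the complex that binds neurexin tails, had -0.81 ± 0.24, and Dlg1, a scaffold of the same family as the main postsynaptic density scaffold, had -0.55 ± 0.17. Dlg4, the main scaffold that binds neuroligins and also one of the synaptic neuron markers, had 0.41 ± 0.18 (with the block an adjusted p of 0.00553 in edgeR), and Lin7b had 0.37 ± 0.23 (with the block an adjusted p of 0.271). With the block and the offset only Lin7a remained called, at -0.58 (edgeR, adjusted p = 0.000459), against 7.83% of all genes higher and 7.36% lower. The median of the list was -0.11 in that fit. Dlg1 had -0.28 there, Dlg4 had 0.18 (edgeR, adjusted p = 0.310) and Lin7b turned to -0.29 (adjusted p = 0.272).

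Other synaptic organisers, 36 adhesion genes outside the families above, were divided, with 19 log2 fold changes above and 17 below 0 and a median of 0.11. Cadm4, an adhesion protein of the SynCAM family, was the only one called in the unpaired test, against 0.71% of all genes higher and 2.36% lower. Its log2 fold change was 1.00 ± 0.18 (581 ± 54.1 against 291 ± 47.5 CPM, n = 3 each, edgeR's quasi-likelihood test, adjusted p = 0.00452). The call was lost without polyribosome replicate 2, total RNA replicate 1 or total RNA replicate 2, while the log2 fold change stayed between 0.86 and 1.08 over all single libraries left out. With the block 8 of 36 rose, against 11.8% of all genes, and 4 fell, against 13.2%, and with the block and offset 5 were called higher, against 7.83%, and 0 lower, against 7.36%. Next to Cadm4, Igsf21, which encodes an immunoglobulin protein of inhibitory synapses, had 0.76 ± 0.19 (with the block an adjusted p of 2.59e-06 in edgeR), and with the block and offset it had 0.27 and was not called (adjusted p = 0.124). Cadm4 had 0.58 in that fit (edgeR, adjusted p = 0.000123). The genes lower with the block were Il1rapl1 (-0.65), Tenm1 (-0.49), Lrrc4c (-0.49) and Lrfn5 (-0.47), and with the block and offset none was called, with values of 0.00 for Il1rapl1, -0.01 for Tenm1, -0.15 for Lrrc4c and -0.27 for Lrfn5 (edgeR, adjusted p = 0.0713 for the last).

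**Figure D5:**
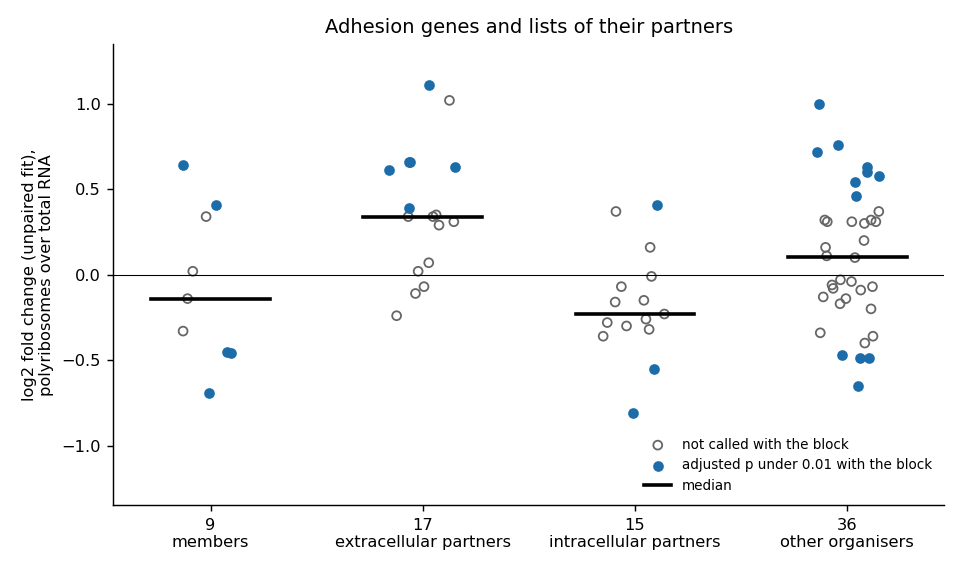
The vertical axis is the log2 fold change of the unpaired edgeR fit for the 9 adhesion genes and for 17 extracellular partners, 15 intracellular partners and 36 other organisers, with points spread sideways for legibility, filled points for genes past the threshold in the blocked fit, and black bars at the medians. The medians were -0.14, 0.34, -0.23 and 0.11, and genes on both sides of 0 passed the blocked test in every list but that of the extracellular partners.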

How the data were processed

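The authors prepared libraries from RNA depleted of ribosomal RNA (the labels name a kit protocol that does not mark strand, and the methods describe a dUTP step added to it to make the libraries strand-specific), mapped the reads with STAR (version 2.5.2b in the submitters' processing notes) to GRCm38 and counted reads per gene with the basic set of Gencode vM6. They deposited raw counts per protein-coding gene, not normalized. Use of the strand in counting is not given in the sources used here, so antisense overlaps are treated as uncertain. The deposited table also holds the authors' DESeq2 comparison (a mean normalized signal, a log2 fold change with its standard error on the log2 scale, a Wald score, a p-value and its adjustment). These columns were not used.

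The counts were analysed with edgeR 4.0.16 in R 4.3.3 (TMM, filterByExpr, quasi-likelihood test, group as the only term, all 6 libraries), with Benjamini-Hochberg adjustment over all genes tested and the study's threshold of 0.01. CPM values are scaled to the library total after TMM normalization. Alternatives were DESeq2 1.42.0, other scalings, no filter, a replicate block, a GC and length offset, and leaving out each library or replicate. GC content, lengths, overlaps and start codons come from Gencode vM21 on GRCm38, matched for 99.5% of the genes tested. GC content, start codons, untranslated regions and coding length are those of a single transcript per gene, whereas the counts are per gene. The libraries of a replicate number come from 1 preparation, and over genes the departures of both libraries from their group means had correlations of 0.366, 0.258 and 0.380, so the replicate number was used as a pairing. Replicates of a group differed by more than sampling noise (chi-square per degree of freedom 3.40-19.7). The p-values of the unpaired fits rest on the spread between preparations within a group. Those of the blocked fits rest on how the difference between the groups varied from preparation to preparation. In both, edgeR takes this spread partly from all genes tested, so a p-value does not rest on the variation of its gene alone. The blocked standard error was 0.12 for Nrxn2 and 0.13 for Nlgn3. The SD of their log2 ratios within replicates was 0.03 and 0.36. The count model adds sampling noise to both kinds of fit, and no other source of error enters.

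On counts simulated for this comparison with 2-fold changes (5 draws of 12108 genes on average), the unpaired test found 55.7% of altered genes, with 14 calls among 59559 unaltered genes. The 9 adhesion genes had smaller changes, from -0.69 to 0.64 on the log2 scale. Recovery of changes of that size was not simulated, so the 55.7% does not apply to them. All 9 genes were named whatever their values. Of each partner list, the rule named the genes with the 2 highest and the 2 lowest log2 fold changes. It also named up to 4 past the threshold of the unpaired test in each direction. Clstn3, Sparcl1 and the other organisers called lower with the block were named as well, but not every gene called with the block was named. The marker lists are given as sums. Further genes of the partner lists are not reported here. The members and lists were chosen with earlier results of these data known, so they are not independent evidence.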

Additional observations from a re-analysis of the deposited data

How the results depend on the processing

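The shallowest library was total RNA replicate 3, and each group had 3 replicates. With DESeq2, Nrxn2 passed the threshold (0.65), 1 adhesion gene was called higher, and 2 extracellular partners and 5 other organisers were called higher, against 3.19% of genes. The replicate block brought Nrxn2 (0.63), Nlgn1 (-0.47), Nlgn2 (0.42), Lrrtm2 (-0.66) and Lrrtm4 (-0.44) past the threshold, with 2 adhesion genes higher and 3 lower. In the lists, the block gave 6 extracellular partners higher, 1 intracellular partner higher and 2 lower, and 8 other organisers higher and 4 lower, and changed no call of Nrxn3, Nlgn3, Lrrtm1 or Lrrtm3. With the block 11.8% of all genes were called higher and 13.2% lower. With the block and the GC and length offset, Nlgn1 (0.12) and Lrrtm3 (0.14) turned sign, and 4 extracellular partners were higher, 1 intracellular partner lower and 5 other organisers higher. In that fit 7.83% of all genes were called higher and 7.36% lower. The offset without the block, added after the data were seen, gave 0.12 for Nlgn1, 0.13 for Lrrtm3 and 0 other organisers higher, against 29 of 12193 genes. Scaling by library totals alone shifted the median of all genes to -0.11 and turned Nrxn3 (-0.08). Without the filter on low counts, 2 extracellular partners and 3 other organisers were higher and 1 intracellular partner lower. Of 16736 genes in that fit, 476 were called higher and 566 lower. The causes were not tested.

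Leaving out single libraries, or whole replicates in the blocked fit (added after the data were seen), gave log2 fold changes of 0.53 to 0.72 for Nrxn2, -0.08 to 0.14 for Nrxn3 (turning sign at -0.04, -0.02 and -0.01 without polyribosome replicates 2 and 3 and total RNA replicate 3, and at -0.03 and -0.08 without replicates 2 and 3 in the blocked fit), -0.64 to -0.28 for Nlgn1, 0.32 to 0.47 for Nlgn2, -0.49 to -0.17 for Nlgn3, 0.26 to 0.42 for Lrrtm1, -0.88 to -0.47 for Lrrtm2, -0.29 to -0.04 for Lrrtm3 and -0.53 to -0.40 for Lrrtm4. In the blocked fit, Nrxn2 had 0.61 and Lrrtm2 -0.74 without replicate 1, and without replicate 3 the values were 0.62 for Nrxn2, -0.38 for Nlgn1, 0.47 for Nlgn2 and -0.65 for Lrrtm2. Over the same fits, 0 to 2 adhesion genes were called higher and 0 to 3 lower, 0 to 7 extracellular partners higher, 0 to 2 intracellular partners higher and 0 to 3 lower, and 0 to 11 other organisers higher and 0 to 7 lower. Of all 12255 genes tested, 87 were called higher and 289 lower in the unpaired edgeR test. Counts were 316 and 374 of 9919 with DESeq2, and 476 and 566 of 16736 without the filter. The block gave 1441 and 1622 of 12255, and the block and offset 955 and 898 of 12193. With the offset alone 29 and 110 of 12193 were called, and by library totals 42 and 366 of 12255. Single libraries left out gave 0 to 61 and 22 to 208 of 12270-12743. The blocked fit with a replicate left out gave 518 to 1470 and 682 to 1602 of 12176-12539. The adhesion genes called in these leave-out fits were all from the blocked ones.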

Other observations

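Genes whose abundance over the 6 libraries was most like that of Nrxn2, by root mean square distance of centred log2 CPM, were Abcb9 (0.051) and Col6a1 (0.053), with log2 fold changes of 0.62 and 0.63. Those most like Lrrtm2 were Galnt13 (0.079) and Ids (0.081), with log2 fold changes of -0.71 and -0.62. The GC content of Abcb9 was 59.4% and of Galnt13 37.4%.

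Lrrtm1, Lrrtm2 and Lrrtm3 each lie inside an alpha-catenin gene, on the opposite strand and with 0 shared exonic bases. Ctnna2, which contains Lrrtm1, had a log2 fold change of -0.18 ± 0.20 against 0.34 for Lrrtm1. Ctnna1, which contains Lrrtm2, had 0.75 ± 0.16 (edgeR's quasi-likelihood test, adjusted p = 0.0108 and with the block 2.02e-06) against -0.69 for Lrrtm2. Ctnna3, which contains Lrrtm3, had 0.25 ± 0.37 against -0.14 for Lrrtm3.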
